A study of Homo sapiens with 6 samples.

Results

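Defensins are small cationic antimicrobial peptides held together by disulfide bonds. The genes described here are the 45 protein-coding genes of the RefSeq table for hg38 (assembly GRCh38.p14) whose symbols begin with DEFA or DEFB followed by a number, out of 20037 protein-coding genes in all. They comprise 6 alpha-defensin genes and 39 beta-defensin genes, with 25 on chromosome 8, 13 on chromosome 20, 4 on chromosome 6, 2 on chromosome 11 and 1 on chromosome 4. Separated wherever neighbours lay over 100 kb apart, they formed 10 blocks. The members were named by symbol, and the family was selected on the H3K27me3 peak coverage of these same lists, in which DEFB105B and DEFB103A were already known to be among the genes that differ most between genotypes. Its coverage is therefore a description, with no test.

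Alpha-defensins are stored in neutrophil granules (DEFA1, DEFA1B, DEFA3 and DEFA4) or secreted by Paneth cells of the small intestine (DEFA5 and DEFA6). Beta-defensins are made by epithelia. DEFB1 is made constitutively in kidney tubules and the urinary tract, DEFB4A and DEFB4B (beta-defensin 2) and DEFB103A and DEFB103B (beta-defensin 3) are induced in barrier epithelia by microbes and inflammation, and most of the other genes are known mainly from epididymis and testis, where DEFB126 coats sperm. H3K27me3, trimethylation of lysine 27 of histone H3, is written by Polycomb repressive complex PRC2, whose catalytic subunit is EZH2, and is found at genes that are silent in a cell type.

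The series profiled ACHN cells, a human renal carcinoma line, by ChIP-seq, the sequencing of DNA precipitated with an antibody, here against H3K27me3 or EZH2. The control cells had intact ZCCHC8 (genotype ZCCHC8-WT, here WT), and the cells targeted by a guide against it were of genotype ZCCHC8-KO (here KO). ZCCHC8 is the scaffold of the NEXT complex, which hands nuclear RNAs to the exosome, and the series asks how NEXT relates to H3K27me3. Whether the KO cells were 1 clone or a pool, and which guide the WT cells carried, is not stated in the labels. Each combination of antibody and genotype had 1 library, without replicates, so differences between genotypes cannot be set against a replicate error and no p-value is given. The 1 input per genotype served as the control of the lists.

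The data are positions of enriched regions (peaks). The H3K27me3 lists held 93095 peaks in WT and 69840 in KO, and the EZH2 lists 30734 and 19566, with median widths of 208 to 269 bp. The read depth behind them is unknown, and a stretch without a peak is one that was not listed, which is not the same as one without the mark. No peak of any list lay within 5 kb of ZCCHC8, so the lists do not check the knockout. Of the kidney and renal carcinoma markers, PAX8, PAX2, KRT8, KRT18, VIM and MET had no H3K27me3 peak in either genotype, CDH6 had 2.18% of its length with 5 kb flanks covered in WT (KO 1.74%), and CA12 had 0.270% in WT.

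Throughout, the window of a gene is the gene with 5 kb on both sides, a gene is marked if at least 1 bp of its window lies in a peak, and the covered share is the percentage of the window inside peaks. Defensin windows were short, with a median of 13915 bp against 34115 bp over all protein-coding genes, so 1 peak takes a larger share of them. A gene is called lower or higher in KO where its shares were at least 2-fold apart and the larger was at least 2%. Windows of neighbouring genes can overlap, and a peak in the overlap counts for each of them. Numbers of marked or called genes are therefore not numbers of separate events. By their names (A and B forms, and DEFA1 with DEFA3), 21 of the 45 genes have a near-identical copy elsewhere, pseudogenes included, and reads from such copies may not be told apart; how the submitters placed these reads is not stated. The remaining 24 have no such copy by name.

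Sequence around the start was in hand for 18 of the 45 genes (RefSeq, GRCh38.p14, 250 bases before to 50 after the start). These 18 lie on chromosomes 4, 6, 11 and 20, so their base composition does not describe the densely marked repeat genes. These promoters were poor in CpG, written CG on both strands, the dinucleotide that is dense at classical Polycomb targets. They held a median of 2 CpG in 300 bases (range 0 to 9), against a median of 14 over 27305 genes, of which 44.0% held 9 or fewer. Their GC content had a median of 45% against 58.3%. The 250 bases upstream of 3 starts are shown, 5′ to 3′ on the gene's strand, with capitals for bases inside the WT H3K27me3 peak. DEFB112 (chr6:50049930-50050179, minus strand) was the only 1 of the 18 whose start region lay in a peak of any list. DEFB113 (chr6:49969626-49969875, minus strand), of the same block, had peaks close to the start in both genotypes. DEFB123 (chr20:31440382-31440631, plus strand) was the 1 with the most CpG.
DEFB112: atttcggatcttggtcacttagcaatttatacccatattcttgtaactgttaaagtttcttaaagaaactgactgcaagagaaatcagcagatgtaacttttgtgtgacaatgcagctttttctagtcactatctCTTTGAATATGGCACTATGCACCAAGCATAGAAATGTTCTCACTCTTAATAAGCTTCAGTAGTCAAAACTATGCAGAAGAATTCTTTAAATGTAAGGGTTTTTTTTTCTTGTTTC
DEFB113: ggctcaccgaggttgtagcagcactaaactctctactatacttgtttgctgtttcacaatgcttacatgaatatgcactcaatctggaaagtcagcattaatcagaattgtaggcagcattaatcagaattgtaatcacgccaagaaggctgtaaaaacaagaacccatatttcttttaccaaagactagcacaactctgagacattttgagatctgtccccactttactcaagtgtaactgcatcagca
DEFB123: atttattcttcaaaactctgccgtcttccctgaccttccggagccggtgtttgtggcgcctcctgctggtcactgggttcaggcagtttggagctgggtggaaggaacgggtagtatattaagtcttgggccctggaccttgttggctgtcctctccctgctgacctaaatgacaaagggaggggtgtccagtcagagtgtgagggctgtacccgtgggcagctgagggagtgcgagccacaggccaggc
The WT H3K27me3 peak covered 115 of the 250 bases shown for DEFB112, and 165 of the 300 bases around its start. In KO no base was covered, and the nearest peak lay 5449 bp away. At DEFB113 the nearest H3K27me3 peak lay 103 bp from the start itself in WT and 767 bp from it in KO. At DEFB123, with 9 CpG in 300 bases and 7 in the stretch shown, the nearest peak lay 37914 bp away in WT and 7759 bp in KO.

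Of the 45 defensin genes, 28 (62.2%) were marked by H3K27me3 in WT, against 26% of all protein-coding genes, and 27 (60.0%) in KO, against 23.1%. In 23 genes the mark was listed in both genotypes (all genes 18.1%), in 5 only in WT (all genes 7.88%) and in 4 only in KO (all genes 5.03%), leaving 13 without it. On average peaks covered 9.03% of a defensin window in WT and 5.98% in KO, against 0.822% and 0.688% over all protein-coding genes, while the median ran the other way, from 1.39% in WT to 2.43% in KO (0 over all genes in both). Among the 24 genes without a near-identical copy, 13 were marked in WT and 11 in KO.

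The call rule took 8 genes as lower in KO (17.8%, all genes 4.47%) and 9 as higher (20%, all genes 2.77%). The lower ones were DEFB104B, DEFB105A, DEFB105B, DEFB106B, DEFB134 and DEFB135 on chromosome 8, DEFB112 on chromosome 6 and DEFB127 on chromosome 20. The higher ones were DEFA4, DEFB103A, DEFB109B and DEFB130A on chromosome 8, DEFB113 and DEFB114 on chromosome 6, and DEFB125, DEFB129 and DEFB132 on chromosome 20. Without the genes with near-identical copies, 4 were lower and 6 higher. The split depended on the score that the authors gave each peak: with only peaks at or above the WT median score of 7 in both lists, 13 genes were lower and 2 higher. In a short window 1 peak can pass the 2% minimum, as the 303 bp peak of DEFA4 did (2.43%). Only 26% of all genes were marked in WT. The shares over all genes are thus not a like-for-like measure of change.

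**Figure D1:**
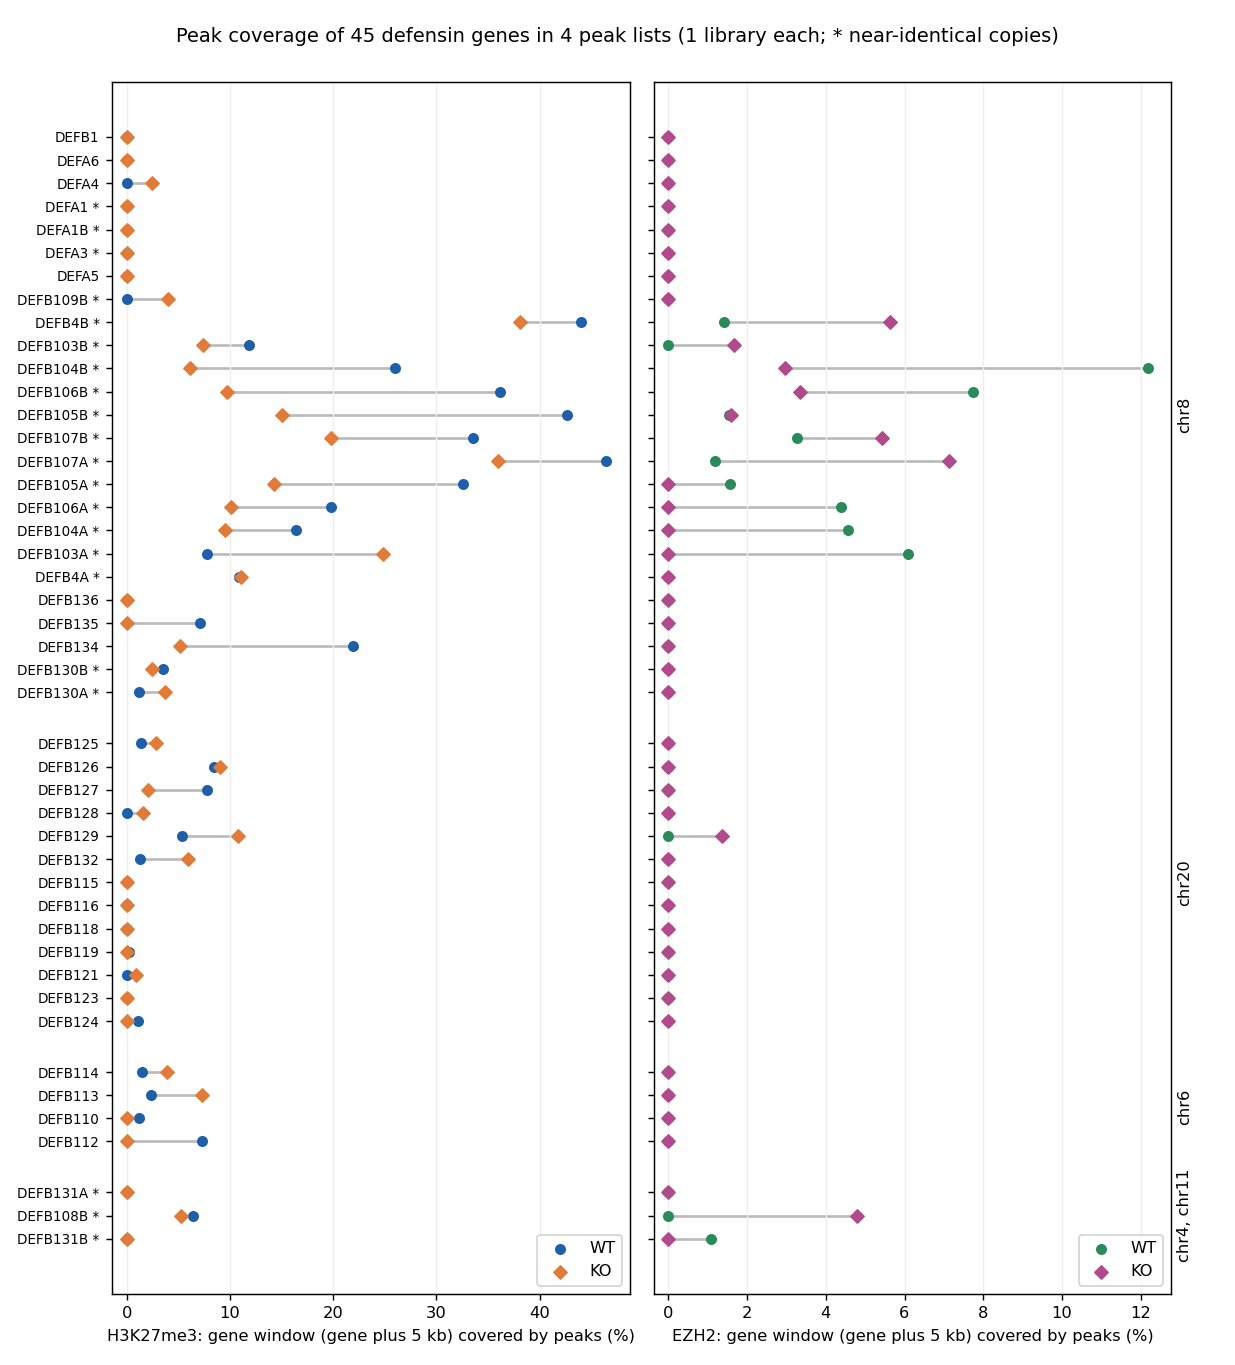
Share of each defensin gene's window (gene plus 5 kb) covered by H3K27me3 peaks (left) and EZH2 peaks (right), in percent, with circles for WT and diamonds for KO, 1 library each; genes run by position within chromosomes, a KO diamond hides an equal WT circle, and an asterisk marks near-identical copies. The highest H3K27me3 shares, up to 46.4% in WT and 38.1% in KO, lie in the run from DEFB4B to DEFB4A on chromosome 8, and EZH2 shares stay at or below 12.2%.

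The densest marking lay in a pair of mirrored repeats on chromosome 8, each with 6 beta-defensin genes: DEFB4B, DEFB103B, DEFB104B, DEFB106B, DEFB105B and DEFB107B at chr8:7409855-7514311 (B repeat, flanks included), and DEFB107A, DEFB105A, DEFB106A, DEFB104A, DEFB103A and DEFB4A in the opposite order at chr8:7806720-7901716 (A repeat). H3K27me3 peaks covered 26.4% of the B repeat in WT (51 peaks) and 17.8% in KO (35 peaks). In the A repeat the values were 17.9% (33 peaks) and 16.3% (36 peaks). The 292408 bp between the repeats had 3.86% and 3.06%, the 100 kb left of the B repeat 1.75% and 3.56%, and the 100 kb right of the A repeat 3.13% and 0.887%. Coverage was thus several times denser in the repeats than in these flanking stretches in both genotypes, although it ran past the inner ends of the repeats. The stretch between the repeats holds a run of FAM90A genes, most without a peak in any list. Whether reads could be placed there was not tested.

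Among all 20037 genes ordered by H3K27me3 covered share, 9 defensin genes stood in the first 100 in WT and 4 in KO. Of the 9, 8 belonged to the repeats and the other was DEFB134. DEFB107A, a gene of the testis and epididymis group, ranked 3 in WT and 6 in KO, and DEFB4B ranked 4 and 2. DEFB105B ranked 6 in WT and 119 in KO, while DEFB103A ranked 519 in WT and 32 in KO.

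**Figure D2:**
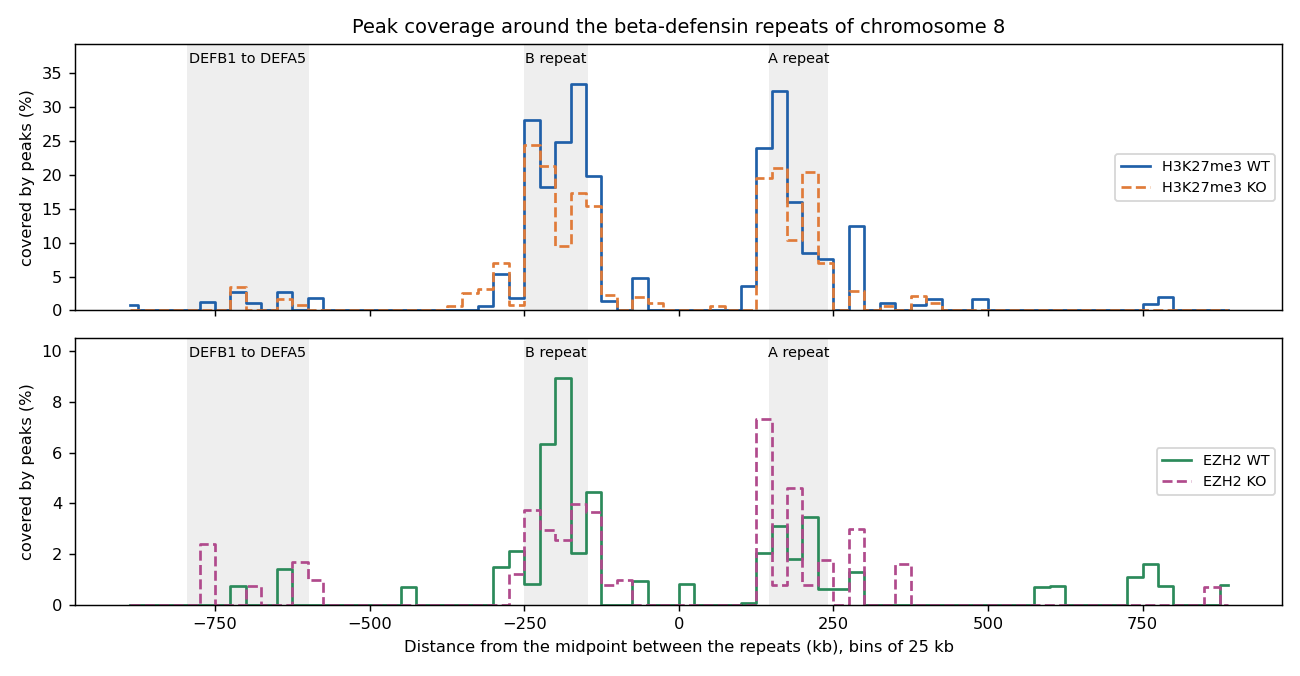
Percent of each 25 kb bin covered by H3K27me3 peaks (top) and EZH2 peaks (bottom) against the distance in kb from the midpoint between the chromosome 8 repeats, with solid lines for WT and dashed lines for KO, and grey bands for the repeats and for the span of DEFB1 to DEFA5. The highest WT bins hold 33.4% in the B repeat and 32.4% in the A repeat, the bins at the inner edges of the repeats, which lie mostly between them, hold 19.9% and 24% in WT, and farther from the repeats no bin exceeds 12.5% in WT.

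The middle of the repeats, with DEFB104, DEFB105 and DEFB106, had a smaller share of their windows under H3K27me3 in the KO list in both copies. Of the DEFB104B window, 26% was covered in WT and 6.16% in KO. DEFB106B had 36.2% and 9.74%, and DEFB105B had 42.7% and 15.1%. DEFB105 and DEFB106 are known mainly from the male reproductive tract. In the A repeat, DEFB104A had 16.4% and 9.52%, DEFB106A 19.8% and 10.1%, and DEFB105A 32.6% and 14.3%; of these only DEFB105A was 2-fold apart. Over the merged windows of the 3 B genes, 20 WT peaks covered 34.9% and 7 KO peaks covered 9.94%, and over those of the 3 A genes 14 peaks covered 25.1% and 11 peaks 11.6%. The deficits of DEFB104B, DEFB105B and DEFB106B kept their call with every other score minimum, list size, window and joining of peaks that was tried; that of DEFB105A lost it with 10 kb on each side. Within the genes alone the direction was the opposite for the other A copies, with 11.6% in WT and 17.6% in KO for DEFB104A, and 0 and 4.65% for DEFB106A.

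At the outer ends of the repeats, where the inducible beta-defensins DEFB4 and DEFB103 lie, the pattern differed. DEFB4B had 44.0% covered in WT and 38.1% in KO, and DEFB4A 10.9% and 11.1%. DEFB103B had 11.8% and 7.39%, whereas DEFB103A had 7.80% and 24.8%, where 2 WT peaks stood against 8 KO peaks. Inside the genes themselves, with no flank, these 4 copies had no WT H3K27me3 peak, while KO peaks covered 33.9% of DEFB4B, 28.1% of DEFB4A, 17.7% of DEFB103B and 28.6% of DEFB103A. The KO peaks within or across these genes scored 6 to 11, and the marking of the genes' interior was singled out after the values were seen.

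DEFB107, at the inner ends, was covered in both genotypes. WT peaks took up 46.4% of the DEFB107A window and KO peaks 36%, and DEFB107B had 33.5% and 19.7%. Within the genes alone the shares hardly differed between genotypes, with 47.0% and 47.4% for DEFB107A and 16.0% and 16.1% for DEFB107B. DEFB107A is 3997 bp long in the gene table and DEFB107B 13401 bp, so shares of the 2 copies are over unlike lengths.

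Since copies may exchange reads, the copies of each gene were also summed over A and B. On that basis H3K27me3 peaks took up 21.2% in WT and 7.84% in KO for DEFB104, 37.5% and 14.6% for DEFB105, 28.0% and 9.92% for DEFB106, 38.4% and 25.8% for DEFB107, 27.4% and 24.6% for DEFB4, and 9.82% and 16.0% for DEFB103. Summing left DEFB104, DEFB105 and DEFB106 more than 2-fold lower in the KO list. Within each repeat the windows of DEFB106 overlap those of DEFB104 and DEFB105. DEFB105B and DEFB106B have most of their WT peaks in common, so the 3 sums are not separate results. DEFB103 remained higher in KO when summed, although its B copy alone was lower.

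The genes of the B repeat and of the mirrored A repeat could be laid over each other with their outer ends within 14 bp, or 70 bp for DEFB107. In WT, 6315 bp were covered by H3K27me3 peaks at the same mirrored position in both repeats, which is 22.9% of the covered length of B and 36.7% of that of A. In KO the common length was 2483 bp, 13.4% of B and 15.4% of A. The overlap that coverage alone would give was not computed, so these lengths do not measure agreement between the copies. Within 1 repeat, positions covered in both genotypes came to 9989 bp in B (36.2% of the WT and 53.8% of the KO length) and 5743 bp in A (33.4% and 35.6%). The 2 widest WT peaks of the family were mirror counterparts between DEFB105 and DEFB107: chr8:7493025-7495725 (2701 bp, score 13) in B and chr8:7816214-7818882 (2669 bp, score 23) in A, with 85.9% of the mirrored B peak covered in A. KO peaks covered 18.5% of the first and 31.8% of the second. For the other WT repeat peaks of at least 1000 bp, 0 to 50.2% of the mirrored position was covered in WT. The 3 KO repeat peaks of that width had none of their mirrored position covered in KO. For wide peaks at DEFB107B in both lists, the mirrored position lay outside the A repeat as bounded here. A value of 0 there is no mismatch between the repeats. The widest KO peak of the family, chr8:7420836-7422236 (1401 bp, score 14), lay beside DEFB4B.

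Peaks of at least 1000 bp made up 8 of 63 WT H3K27me3 peaks in the windows of the 12 repeat genes (12.7%) against 2.03% of the whole WT list. In KO they were 3 of 52 (5.77%) against 1.73%. The median score of the repeat peaks was 12 in WT and 8 in KO, against 7 and 6 in the whole lists. These peaks were therefore wider and scored higher than those of the whole lists, and the part that pooled reads of near-identical copies have in this was not tested.

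**Figure D3:**
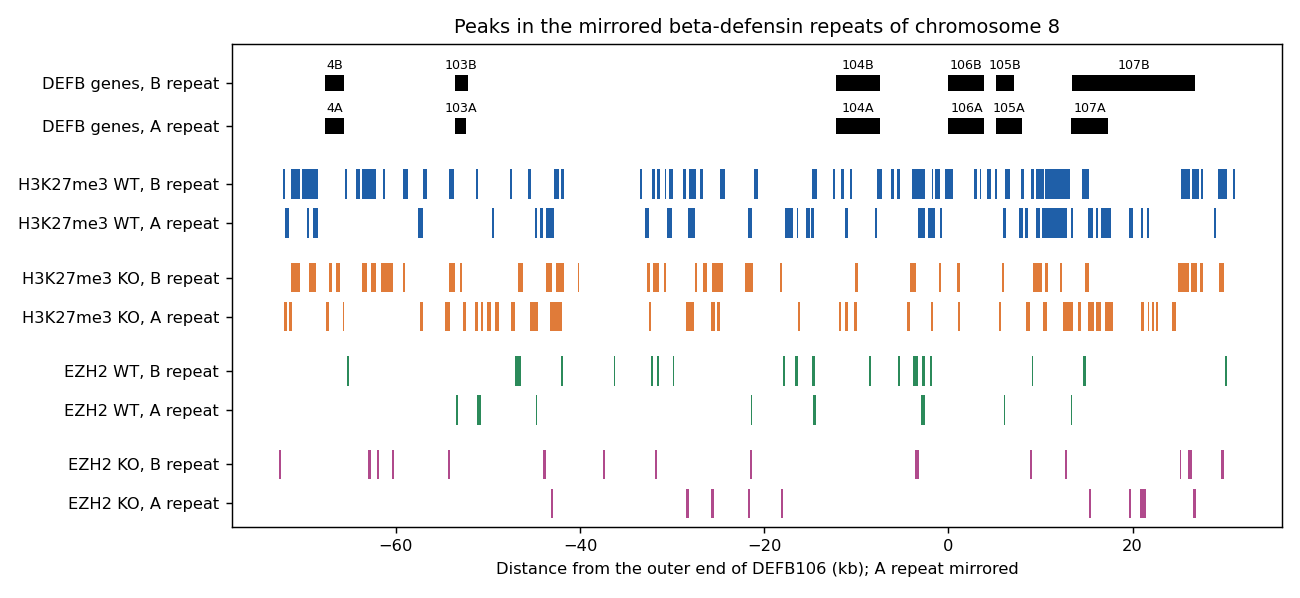
Peaks of the 4 lists in the B repeat and the mirrored A repeat of chromosome 8, by distance in kb from the outer end of DEFB106, with black bars for genes and coloured bars for peaks drawn to scale. The single widest WT H3K27me3 bar of each repeat lies at the same place, to the right of DEFB105, while other wide bars are matched in part or not at all. The DEFB104 to DEFB105 stretch holds fewer KO bars.

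In the span of DEFB1 and the alpha-defensins on chromosome 8 peaks were sparse or absent. DEFB1, the constitutive beta-defensin of kidney epithelium, had no peak of any list in its window. Among the alpha-defensins, DEFA1, DEFA1B and DEFA3 of neutrophils and DEFA5 and DEFA6 of Paneth cells had none either, and DEFA4, another neutrophil defensin, had a single KO H3K27me3 peak of 303 bp with a score of 4, the lowest in that list (2.43% of its window). Over the whole span from DEFB1 to DEFA5, H3K27me3 covered 0.984% in WT and 0.751% in KO. DEFB109B, at the left end of the block that holds the B repeat, had no WT peak and 3.98% covered in KO.

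In the block from DEFB136 to DEFB130B (chr8:11968937-12076747, flanks included), 20 WT peaks covered 6.79% and 10 KO peaks 2.95%. DEFB134 had 9 WT peaks over 21.9% of its window and 3 KO peaks over 5.15%. DEFB135 next to it had 7.06% in WT and no KO peak, and DEFB136 had no peak in either. The WT peaks of DEFB135 lay over 2 kb from the gene, in part inside the DEFB134 window, and with 2 kb flanks or none its share was 0 in both genotypes. Within DEFB134 alone the shares were 10.6% and 8.11%, which is no longer 2-fold apart. The DEFB134 window also holds the pseudogene DEFB131E (chr8:12003400-12004082), whose name marks it as 1 of several copies. A WT peak of 1002 bp lay partly on it, and other WT peaks lay beside it. Over the merged windows of these 3 genes 10 WT peaks stood against 3 KO peaks. None of them overlapped, against 15.9% of the whole WT list, and so few peaks cannot set these windows apart from the list. Covered length in KO was 0.217 times that in WT there, against 0.775 for the whole of chromosome 8. The near-identical copies DEFB130B and DEFB130A had 3.54% and 1.23% in WT and 2.43% and 3.67% in KO; summed, they had 2.39% and 3.05%.

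On chromosome 20 the block from DEFB125 to DEFB132 (chr20:82672-266096), a set of epididymal genes, differed from the block from DEFB115 to DEFB124 (chr20:31252664-31480127). In the former, 33 WT peaks covered 6.04% and 39 KO peaks 6.73%, with all 6 genes marked in at least 1 genotype. DEFB126 had 8.43% in WT and 9.01% in KO. DEFB127 had 7.75% and 2.02%, with the WT peaks partly inside the gene (30.5% of it) and the KO peak only beside it. DEFB129 had 5.37% and 10.8%, DEFB132 1.32% and 5.94%, DEFB125 1.39% and 2.82%, and DEFB128 no WT peak and 1.60% in KO.

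In the block from DEFB115 to DEFB124, 2 WT peaks covered 0.201% and 3 KO peaks 0.364%. DEFB119 (0.260%) and DEFB124 (1.07%) had a peak in WT only and DEFB121 (0.883%) in KO only. DEFB115, DEFB116, DEFB118 and DEFB123 had no peak of any list. DEFB118 encodes a sperm-binding defensin.

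Over all defensin windows of chromosome 20, H3K27me3 peaks covered 1.33 times as much in KO as in WT, against 1.43 over the whole chromosome. It was 0.287 with peaks at or above a score of 7 and 0.397 within genes alone, so its direction depended on both choices. The excess at DEFB129 likewise turned into a deficit of 5.37 percentage points (KO minus WT, -5.37) with that score minimum and of 7.11 points (-7.11) within the gene alone.

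On chromosome 6 all 4 genes of the block from DEFB114 to DEFB112 (chr6:49955249-50054929) were marked in WT and 2 of 4 in KO. DEFB112, whose promoter is printed above, had 4 WT peaks covering 7.34% of its window and no KO peak. DEFB110 had a single WT peak (1.22%) and no KO peak. DEFB113 had 2.39% in WT and 7.25% in KO, and DEFB114, known for binding bacterial lipopolysaccharide, had 1.5% and 3.88%. The KO peaks of DEFB113 and DEFB114 lay between and beside the genes, including a pair of peaks shared by the windows of both genes. The WT peaks lay inside them, covering 27.6% of DEFB113 and 5.34% of DEFB114, so within genes alone the direction was reversed.

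Over the chromosome 6 windows 7 WT peaks stood against 3 KO peaks. None of them overlapped, against 15.9% of the whole WT list, and so few peaks cannot set the block apart from the list. Covered length in KO was 0.386 times that in WT, against 0.662 for the whole chromosome. No KO peak in these windows reached a score of 7.

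**Figure D4:**
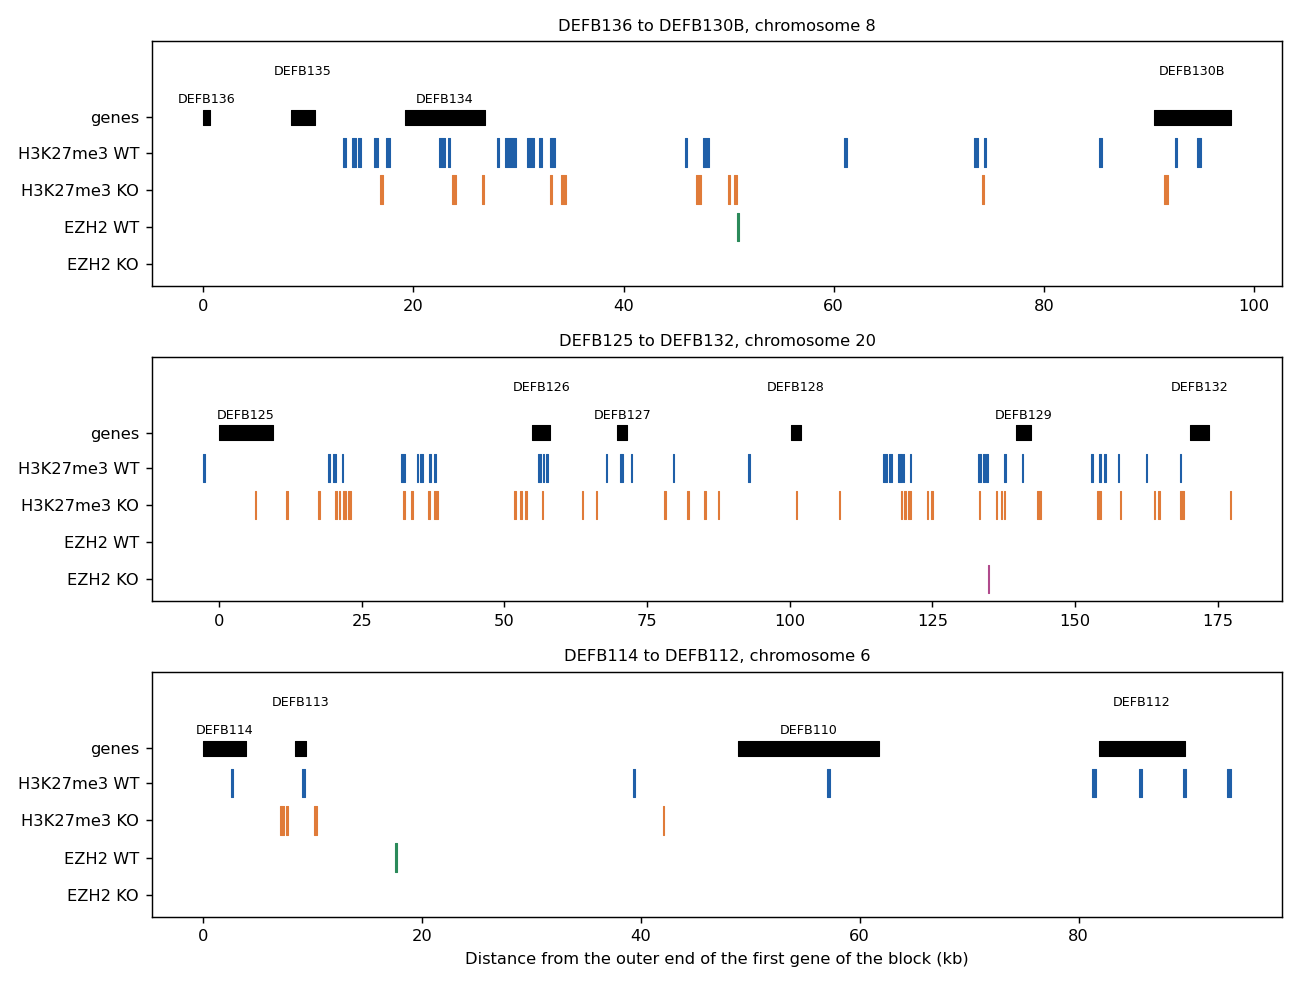
Peaks of the 4 lists over 3 blocks outside the repeats, by distance in kb from the outer end of the first gene of each block, with black bars for genes and coloured bars for peaks. WT H3K27me3 bars outnumber KO bars around DEFB134 and DEFB112, both genotypes have bars over the whole chromosome 20 block, and EZH2 bars number 1 per block.

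On chromosome 11, H3K27me3 covered 6.41% of the DEFB108B window in WT and 5.28% in KO, with 3 peaks in each. None were in common, where only 15.9% of the whole WT list overlapped a KO peak. The WT peaks of DEFB108B lay partly inside the gene (11.1% of it), while no KO peak did. DEFB131B on chromosome 11 and DEFB131A on chromosome 4 had no H3K27me3 peak. These 3 genes have near-identical relatives.

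EZH2 was listed at 11 of 45 defensin genes in WT (24.4%), against 26.9% of all protein-coding genes, and at 9 in KO (20%), against 18.3%. The frequency of marked genes was thus near the background, in shorter windows. The mean covered share was higher, at 1.00% in WT and 0.755% in KO against 0.3145% and 0.2324% over all genes. Without the 12 repeat genes the mean was 0.0333% and 0.187%. In 6 genes EZH2 was listed in both genotypes (all genes 12.6%), in 5 only in WT (all genes 14.3%) and in 3 only in KO (all genes 5.74%). By covered share 5 genes were lower in KO (DEFB103A, DEFB104A, DEFB104B, DEFB106A and DEFB106B; all genes 1.78%) and 3 higher (DEFB4B, DEFB107A and DEFB108B; all genes 1.17%). The windows of DEFB104 and DEFB106 share WT EZH2 peaks in each repeat. Of the 14 genes with an EZH2 peak in either genotype, 11 lay in the chromosome 8 repeats, and the others were DEFB108B, DEFB129 and DEFB131B. Of the 12 repeat genes, DEFB4A was the only 1 without an EZH2 peak.

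DEFB104B had the largest EZH2 share, 12.2% in WT and 2.97% in KO. DEFB106B had 7.74% and 3.35%. Their A copies DEFB104A (4.57%) and DEFB106A (4.39%) had EZH2 in WT and none in KO, as did DEFB105A (1.56%), while DEFB105B had 1.55% and 1.60%. The windows of these 3 A genes overlap and held 3 WT EZH2 peaks together. Each peak of DEFB106A also counted for DEFB105A or DEFB104A, so these are not 3 separate losses. Over the merged windows of the 3 middle genes EZH2 covered 7.52% in WT and 2.15% in KO in the B repeat, and 2.90% and 0 in the A repeat. H3K27me3 and EZH2 coverage were thus both lower there in the KO lists.

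At the ends of the repeats EZH2 coverage was higher in KO at 4 genes. DEFB107A had 1.19% in WT and 7.13% in KO, DEFB107B 3.26% and 5.44%, DEFB4B 1.42% and 5.64%, and DEFB103B 0 and 1.67%. DEFB103A had the opposite, with 6.09% in WT and no KO peak, and an EZH2 peak that covered 20.8% of the gene in WT. That gene had more H3K27me3 in the KO list, so the antibodies differed in direction. They differed in the opposite way in the windows of the 4 genes named first, where H3K27me3 coverage was lower in KO. With 2 kb on each side the EZH2 difference of DEFB4B was reversed, at -2.83 points. The EZH2 difference of DEFB107A was then 0.300 points (1.60 within the gene), so its call was lost. The EZH2 deficits of DEFB104A and DEFB106A were 0 with 2 kb flanks and within the genes.

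Outside the repeats, EZH2 was listed in KO at DEFB108B (4.80%) and DEFB129 (1.38%) and in WT at DEFB131B (1.1%). Each of these genes had EZH2 in 1 genotype only. EZH2 covered length in KO, divided by that in WT, was 0.916 over all defensin windows, 0.706 for the whole list and 0.765 in the repeats. The ratio over all windows passed 1 in 5 of the alternatives tried, reaching 4.92 without the 12 repeat genes, where 1 WT peak stands against 4 KO peaks.

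EZH2 peaks that lay on H3K27me3 were counted in each genotype. In WT 12 of 18 EZH2 peaks (66.7%, exact Clopper-Pearson 95% interval 41.0 to 86.7) overlapped an H3K27me3 peak, against 14.0% of the whole WT list. In KO 8 of 17 did (47.1%, 23 to 72.2), against 19.0%. All of these overlaps lay in the repeats. The family was selected on H3K27me3 coverage, so the shares are descriptions, and nothing is read from their distance to the whole lists. These intervals, and those that follow, cover counting error only, and neighbouring peaks and copies are not independent. Both antibodies were listed at 10 genes in WT (22.2%, all genes 16%) and 9 in KO (20%, all genes 12%).

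A single stretch in all defensin windows was covered in all 4 lists. It was the 142 bp at chr8:7478840-7478981, between DEFB104B and DEFB106B, where the WT H3K27me3 peak was 1376 bp wide and scored 15. Of 18 WT EZH2 peaks at defensin genes 2 (11.1%, 1.38 to 34.7) overlapped a KO EZH2 peak, against 5.13% of the whole list. EZH2 positions were hardly common to the copies either, with 553 bp at mirrored positions in WT (11.5% of the B and 26.5% of the A length) and 19 bp in KO.

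H3K27me3 peaks listed in both genotypes were counted in the same way. In the defensin windows 31 of 100 WT peaks (31.0%, 22.1 to 41.0) had a KO peak on them, against 15.9% of the whole list, and 33 of 83 KO peaks (39.8%, 29.2 to 51.1) overlapped a WT peak, against 21.4%. The share also belongs to the coverage that selected the family, and wider peaks overlap more readily, with a median width of 374 bp for WT peaks in the repeats against 269 bp in the whole list. In the repeats 28 of 63 WT peaks (44.4%, 31.9 to 57.5) were shared. Outside them 3 of 37 (8.11%, 1.70 to 21.9) were, all 3 on chromosome 20. H3K27me3 covered length in KO, divided by that in WT, was 0.693 over all defensin windows, against 0.732 for the genome. It was 0.652 over those of chromosome 8 and 0.657 over the repeats, but 1.15 and 1.02 within genes alone.

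Other genes of the same repeats were marked too. SPAG11B, an epididymal gene with a defensin-like domain between DEFB103B and DEFB104B, had H3K27me3 over 16.8% of its window in WT and 15.8% in KO, and its copy SPAG11A had 15.3% and 7.77%. For the gene lists that follow, the shares over all genes are those given for the family: 26% marked by H3K27me3 in WT, 23.1% in KO, 4.47% lower and 2.77% higher. Of 34 further antimicrobial peptide and protein genes, H3K27me3 marked 16 in WT and 15 in KO, with 1 lower and 5 higher in KO; the largest shares were at PGLYRP4, a peptidoglycan-binding protein (18.0% and 26.8%), and S100A7A, an S100 protein of skin (15.4% and 15.4%). Of the 16 genes of the WFDC cluster on chromosome 20, which encodes protease inhibitors and semen proteins, the WT list marked 11 and the KO list 15; 5 were lower in KO and 3 higher. Its largest shares were at WFDC12 (15.7% and 22.2%), WFDC10A (12.6% and 1.75%) and WFDC2 (7.61% and 17.1%).

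Of 9 genes for processing enzymes and receptors of defensins, 6 were marked in each genotype, with PRSS1 (4.43% and 5.36%) and PRSS3 (3.86% and 6.02%), both trypsinogens, having the largest shares. The markers of the cells that make defensins were mixed. Of 6 neutrophil and Paneth cell markers 1 was marked in WT (REG3A) and 1 in KO (MPO), and of 4 markers of the male reproductive tract 3 were marked in both genotypes (SPAG11B, EPPIN and CRISP1). EZH2, the gene, had no H3K27me3 peak and a single EZH2 peak in WT that covered 0.185% of its window.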

How the data were processed

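Peak lists of 4 ChIP libraries were used, for 2 antibodies and 2 genotypes of ACHN cells, grouped by title and genotype labels; the 2 input libraries entered only as controls of the lists. The submitters' processing notes name cutadapt 1.9.3, Bowtie2 2.2.4 and the build hg38. Neither the peak caller nor the depth of reads is given in the sources used here. The deposited lists gave each peak's position, its length in bp (a column of the authors that counts both end bases, so that positions are 1-based) and the authors' score, which is left undefined in the labels and was used only to describe or filter peaks. Scores began at 5 in WT and at 4 in KO, so equal thresholds may not mean the same in both. Peaks were listed on up to 81 identical lines and were counted once.

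Covered shares, calls (2-fold, 2% minimum), overlaps (1 bp minimum) and exact intervals were obtained in Python 3.11.15 (pandas 2.3.3, NumPy 2.4.6, SciPy 1.17.1; figures with matplotlib 3.10.9). The routines were tested on simulated data. With 1 library per group there was no test. The members, lists and comparisons were chosen with earlier results of these data known. By the rule for named genes, every defensin gene with a peak was accounted for, with the largest shares and differences per chromosome; of each gene list the 2 largest shares per genotype; and ZCCHC8 and EZH2. Alternatives changed the score minimum, list size, window, copies, joining of peaks and overlap. Leaving out the 12 repeat genes, singling out the interiors of DEFB4 and DEFB103, and the mirrored comparison were chosen after seeing the data. Near-identical copies were flagged by symbol, not by alignment. Promoter sequences were matched by symbol. No sequence of a chromosome 8 gene was used.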

Additional observations from a re-analysis of the deposited data

How the results depend on the processing

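No paired analysis was possible because there was 1 library per antibody and genotype. All values rest on single libraries, and the read depth that limits which weak peaks are listed is unknown. Of 17 H3K27me3 gene calls, 17 were kept when the WT list was trimmed to the KO size and 17 with peaks within 1 kb joined, 14 with 2 kb flanks, 11 with 10 kb flanks, 11 within genes and 10 at scores of at least 7; of 8 EZH2 calls, 7, 8, 4, 5, 3 and 6. Causes were not tested.

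Direction was reversed (KO minus WT, percentage points) at DEFB114 with 2 kb flanks (-2.64) and within the gene (-5.34), at DEFB113 (-27.6) and DEFB129 (-7.11) within the gene, at DEFB125 (-1.39) and DEFB129 (-5.37) at scores of at least 7, and for EZH2 at DEFB4B with 2 kb flanks (-2.83). The ratio of KO to WT covered length of H3K27me3 turned to 1.15 on chromosome 8, 1.02 in the repeats and 0.397 on chromosome 20 within genes, and on chromosome 20 to 0.287 at scores of at least 7 and 0.985 with 2 kb flanks. It became 0.289 on chromosome 8 without near-identical copies, and on chromosome 6 it became 0 at scores of at least 7 and within genes, and 0.590 with the trimmed WT list. The EZH2 ratio over all windows was 0.554 at scores of at least 7, 1.07 with the trimmed list, 1.13 with 10 kb flanks, 1.21 within genes, 1.32 with peaks joined and 4.92 without the repeats.

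H3K27me3 counts of marked genes moved to 17 within genes (WT), to 14 at scores of at least 7 (KO), to 13 in WT and 11 in KO without near-identical copies, and to 16 and 15 without the repeats. EZH2 counts moved to 5 in WT and 3 in KO within genes, to 5 with 2 kb and 15 with 10 kb flanks (KO), to 0 and 1 without near-identical copies, and to 1 and 2 without the repeats. Mean H3K27me3 shares moved to 2.79% in WT and 2.16% in KO without near-identical copies, and to 2.37% and 2.03% without the repeats. Mean EZH2 shares moved to 0.659% (WT) and 0.438% (KO) with 2 kb flanks, to 0 and 0.0574% without near-identical copies, to 0.0333% and 0.187% without the repeats, and in KO to 0.426% at scores of at least 7, 0.460% within genes and 1.24% with peaks joined.

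Genes lower in KO for H3K27me3 numbered 13 at scores of at least 7, 4 without near-identical copies and 4 without the repeats, and genes higher in KO numbered 2 at scores of at least 7 and 5 with 10 kb flanks. For EZH2, 3 were lower within genes, 0 without near-identical copies and 0 without the repeats, and 6 were higher with 10 kb flanks, 1 within genes, 0 without near-identical copies and 1 without the repeats. The share of EZH2 peaks on H3K27me3 was 0 in both genotypes without the repeats, and 0 in KO without near-identical copies. WT H3K27me3 peaks shared with KO came to 10.0% without near-identical copies, 8.11% without the repeats, 20% when at least 50% of the WT peak had to be covered, and 41.4% with peaks joined; shared EZH2 peaks came to 0 within genes and without the repeats.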

Other observations

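The gene table also held 23 defensin pseudogenes, which are no members of the protein-coding set. Of these, 15 were marked by H3K27me3 in WT and 13 in KO, against 26% and 23.1% of all protein-coding genes. In KO 13 had a smaller and 4 a larger covered share, and 6 had no H3K27me3 peak in either list. The same split over all genes was not counted, and the whole KO list covered 0.732 times the WT length. DEFB109F on chromosome 12 had 20.6% of its window covered in WT by 10 peaks and 4.25% in KO by 4 peaks. DEFB131E, beside DEFB134 on chromosome 8, had 24.4% and 7.97%, and shares part of that gene's window. DEFB130C, beside DEFB108B and DEFB131B on chromosome 11, had 7.86% and 1.14%. In the alpha-defensin span DEFA9P had 8.50% and 2.12%, and DEFA11P had 6.27% and 3.76%. DEFB122 on chromosome 20 had no WT peak and 4.66% covered in KO. Many of these pseudogenes resemble one another, and reads from them may not be told apart.

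Between the chromosome 8 repeats, the gene PRR23D1 had 18.4% of its window covered by H3K27me3 in WT and 18.7% in KO, and its copy PRR23D2 had 26.9% and 14.8%. The FAM90A genes elsewhere in that stretch had at most 1.48% in WT and 1.38% in KO.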
